A study of Mus musculus with 3 samples.

Results

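De novo fatty acid synthesis builds fatty acids from acetyl-CoA, and 10 genes of the route are described here across the differentiation of 3T3-L1 cells, a mouse line of preadipocytes that fills with fat after hormonal induction. The genes are Acly, Acss2, Me1, Acaca, Acacb, Fasn, Elovl6, Scd1, Scd2 and Thrsp. They were taken by name, with earlier results of these data known, and form 10 of the 20142 genes named on the array. The name of the set fits 9 of them as enzymes, while Thrsp encodes a regulator. The genes have 17 probes of the 26579 named probes, with 1 probe each for Fasn, Elovl6, Scd1, Scd2 and Thrsp, 2 each for Acly, Acacb and Acss2, and 3 each for Acaca and Me1.

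The study asked how gene expression changes as fat cells enlarge, and compared 3T3-L1 cells at day 2, day 8 and day 20 after adipogenic differentiation was started. Total RNA was isolated with Trizol, labelled with cyanine-3 and hybridised to Agilent 1-colour arrays, with 1 array for each day and all arrays on the same slide. No day was repeated, so no difference has a replicate check, no test was possible and every comparison is between single arrays of a single cell line. The error given with each difference is a technical SD, the spread between repeated spots of 1 array at similar brightness. It holds nothing of the spread between arrays or between cultures. Each comparison shares an array with the next, so that the day 8 array bears on the step before it as well as on the step after it.

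In this route citrate leaves the mitochondria and is split by ATP citrate lyase to give cytosolic acetyl-CoA, acetyl-CoA carboxylase turns it into malonyl-CoA, and fatty acid synthase joins these units into palmitate with the reducing power of NADPH. Elongases and desaturases then lengthen palmitate and put in a double bond. In fat and liver the genes of the route are known to respond to insulin and carbohydrate through the transcription factors SREBP-1c and ChREBP and to liver X receptors. Each value below is the log2 processed intensity of a probe minus the 75th percentile of its array, so that 0 stands for a probe as bright as that percentile. Levels of different genes were not set against each other, because probes differ in how well they bind.

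The genes of the route were mostly higher on day 8 than on day 2, and on the scale used here differed by less between day 8 and day 20. Few of all genes passed 2-fold in that second step (3.58% upward and 1.74% downward), and its size depended on the scaling. On day 8, 6 of the 10 genes exceeded their day 2 value by 2-fold or more, namely Thrsp, Acss2, Acacb, Scd1, Acly and Acaca. Scd2, Me1 and Fasn were higher by less than 2-fold, and 1, Elovl6, was lower by more than 2-fold. Of all 12045 genes well above background on both arrays, 13.8% passed 2-fold upward and 12.9% passed it downward. The median difference of the 10 genes was 1.57 on the log2 scale, against -0.06 for all genes. In RNA from a whole culture, more cells that express a gene and more of its RNA per cell cannot be told apart.

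**Figure D1:**
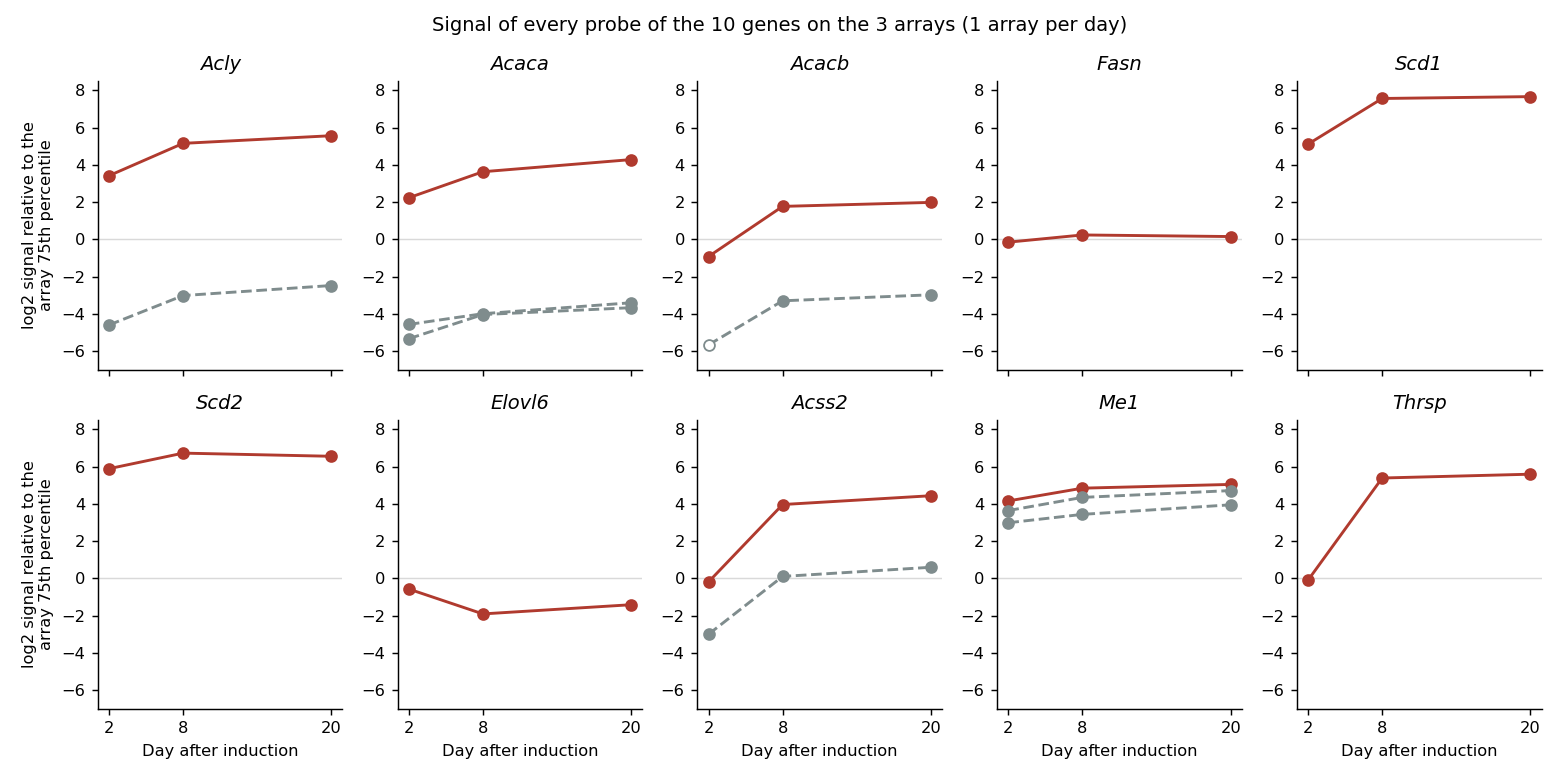
Values of all 17 probes on the arrays of days 2, 8 and 20, as log2 signal relative to the array's 75th percentile, with the brightest probe of each gene in red and its other probes in grey; the open circle is a probe not well above background. Thrsp, Acss2, Acacb, Scd1, Acly and Acaca step up between day 2 and day 8, Elovl6 steps down from -0.57 to -1.91, and Fasn stays between -0.15 and 0.24.

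The sequence before an annotated transcription start was available for 8 of the 10 genes, in 9 windows of 250 bases from the RefSeq table of assembly GRCm38.p6. Of these windows, 5 lie before the gene's RefSeq model and 4 lie inside it, before a later start (Acacb, Acaca, Fasn and 1 of the Me1 windows). Of those before the gene model, all but that of Me1 are shown, for genes that span the range of responses from day 2 to day 8: Thrsp and Acss2 had the largest increases, Acly began the route and was also higher, and Elovl6 was lower. Each is written in the direction of transcription and ends at the base before the annotated start. Capitals mark every match, on either strand, to CCAAT, the box bound by NF-Y, and to GGGCGG, the GC box bound by Sp1. A match on the other strand reads ATTGG or CCGCCC, and no CCAAT match overlaps a GC box in these windows. The windows lie at chr7:97417551-97417800 on the minus strand (Thrsp), chr2:155517793-155518042 on the plus strand (Acss2), chr11:100528001-100528250 on the minus strand (Acly) and chr3:129532136-129532385 on the plus strand (Elovl6).
Thrsp: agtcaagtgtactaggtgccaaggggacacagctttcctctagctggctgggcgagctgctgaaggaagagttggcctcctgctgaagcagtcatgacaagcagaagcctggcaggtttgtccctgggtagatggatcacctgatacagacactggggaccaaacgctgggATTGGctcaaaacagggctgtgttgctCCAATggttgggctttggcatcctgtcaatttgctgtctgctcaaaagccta
Acss2: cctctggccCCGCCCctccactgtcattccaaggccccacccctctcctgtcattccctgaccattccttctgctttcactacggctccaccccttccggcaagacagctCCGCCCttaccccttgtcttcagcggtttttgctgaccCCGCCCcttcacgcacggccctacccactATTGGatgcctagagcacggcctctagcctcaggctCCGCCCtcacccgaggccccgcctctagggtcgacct
Acly: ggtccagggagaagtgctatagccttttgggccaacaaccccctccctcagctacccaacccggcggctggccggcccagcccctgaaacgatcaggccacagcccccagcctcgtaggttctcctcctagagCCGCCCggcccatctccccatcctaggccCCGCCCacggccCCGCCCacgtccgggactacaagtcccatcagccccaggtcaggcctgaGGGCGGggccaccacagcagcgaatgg
Elovl6: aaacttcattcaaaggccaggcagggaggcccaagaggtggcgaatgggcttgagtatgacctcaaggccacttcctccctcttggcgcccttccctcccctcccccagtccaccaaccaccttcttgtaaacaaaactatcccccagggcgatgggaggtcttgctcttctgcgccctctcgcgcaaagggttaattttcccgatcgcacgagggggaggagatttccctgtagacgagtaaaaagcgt

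The Thrsp window held 2 CCAAT matches, 79 and 52 bases before the start and on opposite strands. The Acss2 window held 1 CCAAT match at 73 bases and 4 GC boxes at 241, 140, 102 and 37 bases. The Acly window held 4 GC boxes, at 117, 88, 76 and 27 bases, and the Elovl6 window held neither motif. The Me1 window before the gene model, which is not shown, held GC boxes at 109, 48 and 42 bases and no CCAAT. Over the 9 windows, 5 held CCAAT (those of Acacb, Acss2, Fasn, Me1 and Thrsp), against 33.9% of 32851 windows of all genes. Those of Thrsp and Acss2 are 2 of the 5 windows before the gene model, while those of Acacb, Fasn and Me1 are 3 of the 4 inside it. The Fasn window held 3 such matches, 2 of which overlap. GC boxes were in 3 of the 9 windows (Acly, Acss2 and Me1), all before the gene model, against 32.7% of all windows. CACGTG, the E-box bound by USF and by ChREBP with its partner, was in 0 of the 9 and in 6.02% of all windows. TCACNCCAC, a form of the sterol element bound by SREBP, was in 0 of the 9 and in 1.05% of all windows. Letters that match a motif do not show that a factor binds there, and windows without a match say only that these letters are not in these 250 bases. Of the windows shown, 53.6% of bases were G or C for Thrsp, 64.0% for Acss2, 68.8% for Acly and 56.4% for Elovl6, against a median of 52.4% over all windows. In the Me1 window before the gene model the share was 72.0%.

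Both enzymes that make cytosolic acetyl-CoA were higher on day 8, Acss2 by far more than Acly. Acly, the ATP citrate lyase that splits citrate, read 3.42 on day 2, 5.15 on day 8 and 5.56 on day 20. It was 1.74 (technical SD 0.0737) or 3.33-fold higher on day 8 than on day 2, and a further 0.41 (0.0759) or 1.33-fold higher on day 20. The second Acly probe was about as dim as the array's faint signals, at -4.60, -3.02 and -2.48, and gave a like difference of 1.58 (0.207) to day 8 and 0.54 (0.121) to day 20. The 3 days thus had the same order on both probes, with each step over 2 technical SD.

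Acss2, the cytosolic synthetase that makes acetyl-CoA from free acetate, read -0.19 on day 2, 3.97 on day 8 and 4.44 on day 20. Its processed intensity was 580 on day 2, 9932 on day 8 and 20090 on day 20. The difference to day 8 was 4.16 (0.0713), or 17.8-fold, and 120 of the 12045 genes had a larger one. From day 8 to day 20 it was 0.47 (0.0714), or 1.39-fold. The second probe gave 3.10 (0.103) and 0.49 (0.0800), so the probes agreed on the step to day 20 and differed by about 1 log2 unit on the step to day 8. Between day 2 and day 8 Acss2 differed by 2.42 (0.103) more than Acly, and between day 8 and day 20 by 0.06 (0.104) more, which is within the technical spread. This pair, and the other pairs of genes compared below, were chosen after their values were seen.

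Malic enzyme, which yields NADPH for the synthase while turning malate into pyruvate, showed a smaller difference. Me1 read 4.16 on day 2, 4.84 on day 8 and 5.04 on day 20. It was 0.69 (0.0679) or 1.61-fold higher on day 8, and 0.20 (0.0694) or 1.15-fold higher again on day 20. The other Me1 probes gave 0.71 and 0.45 to day 8 and 0.37 and 0.51 to day 20, so the 3 probes shared the order of the days and spread around 2-fold in the whole difference from day 2 to day 20, at 0.89, 1.07 and 0.96.

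The carboxylases, which make malonyl-CoA, were both higher on day 8, and Acacb by the larger factor. Acaca, the cytosolic form whose malonyl-CoA feeds the synthase, read 2.23 on day 2, 3.63 on day 8 and 4.28 on day 20. It was 2.64-fold higher on day 8 than on day 2 (technical SD 0.0702 on the log2 scale), and then higher by 0.65 (0.0690) or 1.57-fold, the largest of the 10 genes between day 8 and day 20. Its other probes were dim on every array, between -5.33 and -3.40. They gave 0.58 (0.211) and 1.30 (0.298) to day 8 and 0.59 (0.151) and 0.37 (0.164) to day 20. All 3 probes placed the days in the same order, but the probe with 0.58 showed a clearly smaller first step than the brightest one.

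Acacb, the form at the mitochondrial surface whose malonyl-CoA restrains the entry of fatty acids for oxidation, read -0.92, 1.77 and 1.98 on days 2, 8 and 20. The differences were 2.69 (0.0725) or 6.46-fold and then 0.21 (0.0784) or 1.16-fold. Its second probe, too dim on day 2 to stand well above background, gained at least 5.16-fold by day 8 and was 0.32 (0.137) higher again on day 20. Such a bound sets the bright value against the dim one, or against the faintest signal well above background where that is brighter. The difference from day 2 to day 8 was 1.29 (0.101) larger for Acacb than for Acaca, and from day 8 to day 20 it was 0.44 (0.104) smaller. On this scale Acacb thus had 92.6% of its whole difference to day 20 by day 8, and Acaca 68.2%. Both shares are of log2 differences of the brightest probe and depend on the scaling: with spike-in scaling the later step was 0.88 for Acacb and 1.32 for Acaca. The Acaca share also depends on the probe. Its dim probes gave 0.58 by day 8 of 1.16 by day 20, and 1.30 of 1.67.

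Fasn, the multi-enzyme synthase that makes palmitate, differed least of the 10 genes in each comparison on this scale. It read -0.15 on day 2, 0.24 on day 8 and 0.15 on day 20, from processed intensities of 596, 749 and 1029. The difference to day 8 was 0.39 (0.0752) or 1.31-fold, and 70.9% of measured genes had a lower one. The difference from day 8 to day 20 was -0.09 (0.0791), which is within 2 technical SD, and its sign turned to positive when arrays were scaled on their median or on spike-in probes. On day 20 against day 2, Acly differed by 1.84 (0.108) and Acaca by 1.75 (0.106) more than Fasn did. Fasn has a single probe here, so no second probe could be set beside it.

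Among the enzymes that finish the product, the desaturases were higher on day 8 and the elongase was lower. Scd1, a stearoyl-CoA desaturase that puts the first double bond into saturated fatty acids, read 5.11 on day 2, 7.56 on day 8 and 7.66 on day 20. Its intensity reached 187882 on day 20, and its spot was not saturated on any array. The difference to day 8 was 2.45 (0.0660) or 5.47-fold, and the difference from day 8 to day 20 was 0.10 (0.0756), within 2 technical SD.

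Scd2, a second desaturase of the same kind, read 5.89, 6.72 and 6.56. It was 0.84 (0.0654) or 1.79-fold higher on day 8 than on day 2. From day 8 to day 20 it differed by -0.17 (0.0756), and this sign turned to positive under quantile, cyclic loess, median and spike-in scaling. The step to day 8 was 1.61 (0.0930) larger for Scd1 than for Scd2, a factor of 3.06. Scd1, Scd2, Scd3 and Scd4 are close relatives that lie side by side in the RefSeq gene table, and how far each probe is specific to its gene was not checked here. Scd3, named after its values were seen, was 1.51 higher on day 8 by its brightest probe and 0.54 higher when its probes were averaged, and Scd4 was not well above background on any array.

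Elovl6, the elongase that carries palmitate to stearate, was the exception in direction. It read -0.57 on day 2, -1.91 on day 8 and -1.41 on day 20, from intensities of 446, 170 and 348. It was lower on day 8 by 2.53-fold (log2 difference -1.34, technical SD 0.0809), and 7.67% of measured genes had a lower difference. From day 8 to day 20 it was 0.49 (0.0879) or 1.41-fold higher, which left it short of its day 2 value, with a difference of -0.84 (0.0820) from day 2 to day 20; under spike-in scaling that difference was -0.15. With normexp background correction the difference to day 8 was -0.97, just short of 2-fold. Scd1, which acts on the product of Elovl6, differed by 3.79 (0.104) more than Elovl6 between day 2 and day 8.

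Thrsp showed the largest difference of the 10 genes. It encodes Spot 14, a small protein found in lipogenic tissues and first known for its response to thyroid hormone, which has no catalytic activity of its own that is known. It read -0.09 on day 2, 5.39 on day 8 and 5.59 on day 20, from intensities of 620, 26645 and 44768. The difference to day 8 was 5.48 (0.0709), or 44.7-fold, and 48 of 12045 genes had a larger one. From day 8 to day 20 it was 0.20 (0.0743), or 1.15-fold, so that 96.4% of the whole difference was reached by day 8 on this scale. With spike-in scaling the later step was 0.87, so that share depends on the scaling. Mid1ip1, a relative of Thrsp that aids the assembly of acetyl-CoA carboxylase into filaments, read 2.83, 3.58 and 4.07, with differences of 0.75 and 0.49; it is named here after its values were seen.

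**Figure D2:**
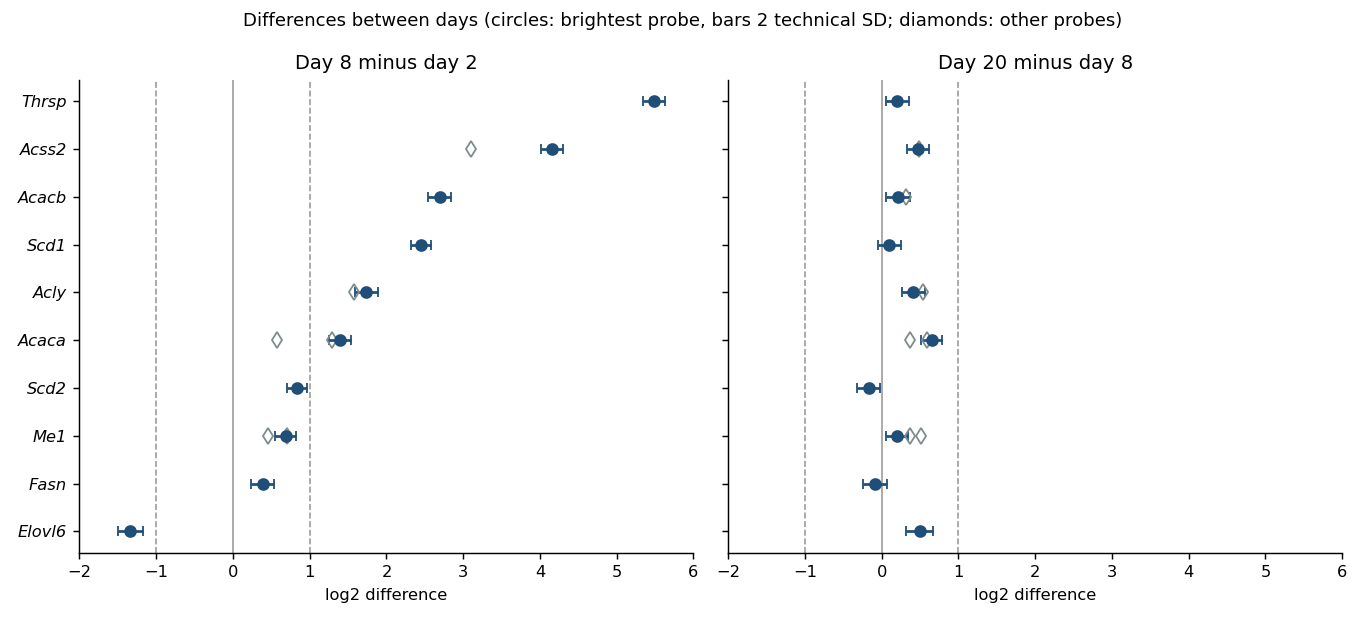
Log2 differences of the 10 genes from day 2 to day 8 (left) and from day 8 to day 20 (right); circles are the brightest probe with bars of 2 technical SD, diamonds are other probes well above background on both arrays, and dashed lines mark 2-fold. In the left panel 6 genes lie beyond 2-fold higher and Elovl6 beyond 2-fold lower, and in the right panel no gene lies beyond 2-fold; the signs of Fasn and Scd2 on the right turn under other scalings.

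Between day 8 and day 20, 0 of the 10 genes passed 2-fold upward and 0 passed it downward. Over all 12321 genes measured on both arrays, 3.58% passed 2-fold upward and 1.74% downward. The genes' differences ran from -0.17 for Scd2 to 0.65 for Acaca, with 8 of 10 above 0, and 8 of 10 larger than 2 technical SD in either direction. Their median was 0.21, against -0.05 for all genes. Acaca, Elovl6, Acss2 and Acly stood highest, above 92.7%, 89.3%, 88.7% and 86.6% of all genes.

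The size of these differences depended on how arrays were scaled. Scaling by 1 factor per array moved all genes alike, while quantile and cyclic loess normalization moved them unequally: Scd1 went from 0.10 to 0.64 and 0.55, and Fasn from -0.09 to -0.08 and -0.04. The 75th percentile of intensity was 662 on day 2, 636 on day 8 and 927 on day 20. The mean log2 intensity of 8 spike-in probes was 12.07, 11.98 and 11.86. Scaling on the spike-in probes shifted the median of all genes between day 8 and day 20 by 0.66, to 0.62. Under that scaling 4 of the 10 genes passed 2-fold upward, namely Acaca at 1.32, Elovl6 at 1.16, Acss2 at 1.14 and Acly at 1.07, and 16.9% of all genes did so. Relative to the median of all genes, the median of the 10 genes was 0.26 higher under both scalings, 0.49 higher under quantile normalization and 0.42 higher under cyclic loess. Whether the total RNA of a cell differed between the days was not tested.

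**Figure D3:**
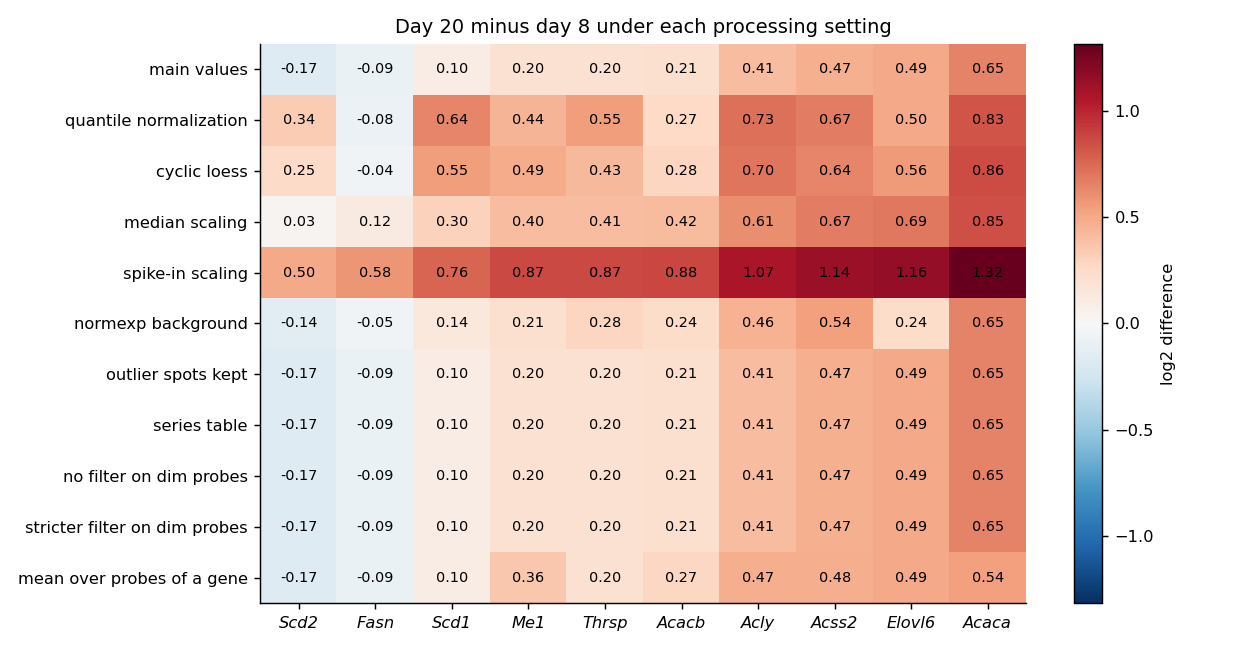
Log2 difference from day 8 to day 20 for each gene (columns) under each processing setting (rows), with red for higher and blue for lower on day 20. Spike-in scaling moves every gene up by the same amount, to between 0.50 and 1.32, while Scd2 and Fasn are the columns whose sign differs between settings.

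On day 20 against day 2, 6 genes passed 2-fold upward and 0 downward. Over all 11888 genes measured on both arrays, 15.5% passed 2-fold upward and 17.0% downward. The 6 were those that had passed it by day 8: Thrsp was 51.5-fold higher (5.69, technical SD 0.0758), Acss2 24.7-fold (4.63), Acacb 7.50-fold (2.91), Scd1 5.86-fold (2.55), Acly 4.43-fold (2.15) and Acaca 4.14-fold (2.05). These are values of the brightest probe. Other probes gave 12.1-fold for Acss2, at least 6.44-fold for Acacb, 4.34-fold for Acly, and 2.24-fold and 3.17-fold for Acaca. Me1 was 1.85-fold higher by its brightest probe, and 2.10-fold and 1.95-fold by its other probes. Scd2 was 1.59-fold and Fasn 1.23-fold higher. The median of the 10 genes was 2.10, against -0.15 for all genes, and 9 of 10 were above 0. Scd2 and Me1 also passed 2-fold under quantile, cyclic loess and spike-in scaling, which brought the count to 8; of all genes, 17.1%, 20.5% and 32.1% passed it upward under these settings. Spike-in scaling moved every gene by 0.69 in this comparison, and Fasn from 0.30 to 0.99.

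**Figure D4:**
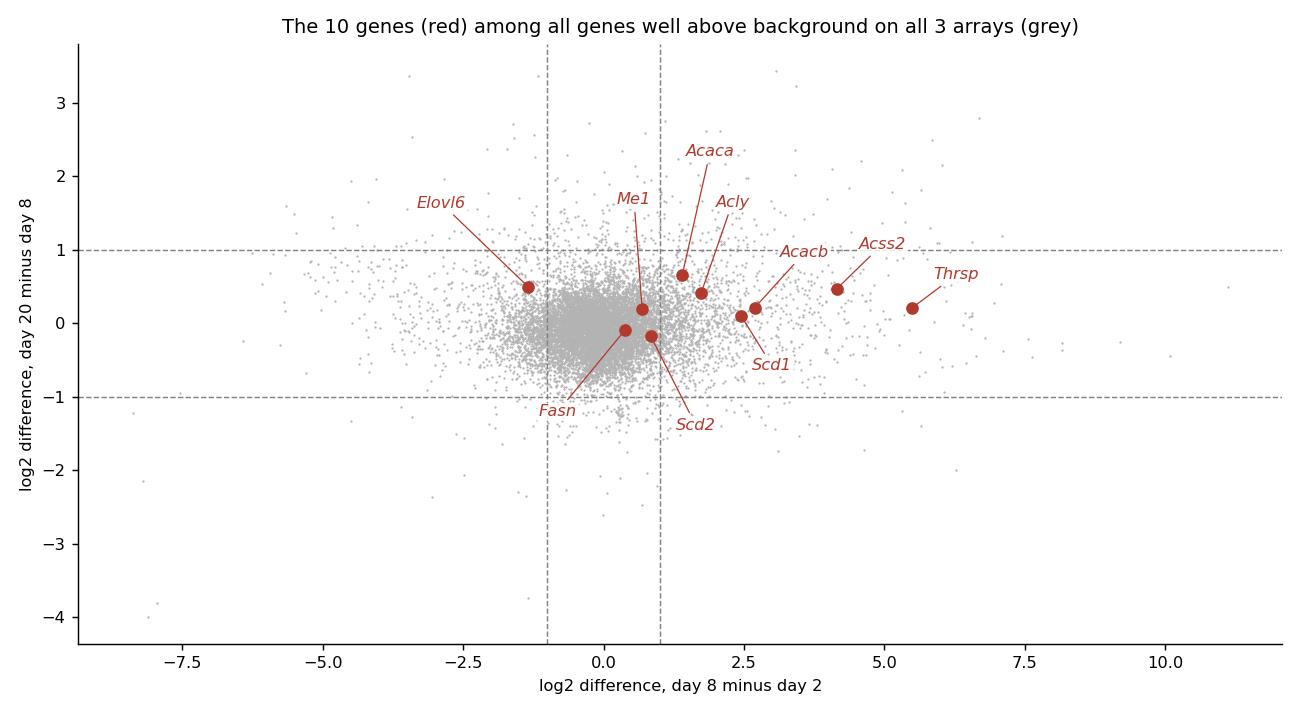
Each grey point is 1 of 11810 genes well above background on all 3 arrays, placed by its log2 difference from day 2 to day 8 (horizontal) and from day 8 to day 20 (vertical); the 10 genes are red and dashed lines mark 2-fold. Thrsp and Acss2 lie at the right edge of the cloud, Fasn, Me1 and Scd2 lie within its dense centre, and Elovl6 lies on the left; the vertical place of Fasn and Scd2 changes sign with the scaling.

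The genes of the route did not share 1 time course, and other genes lay nearest to each of them. Likeness was measured as the Euclidean distance over both steps, day 2 to day 8 and day 8 to day 20, across 11810 genes and 3 arrays. Nearest to Thrsp were Aoc3, a vascular adhesion amine oxidase made by fat cells, at a distance of 0.0263, then Ifit1 at 0.160 and Sparcl1 at 0.306. Only 2 genes lay within 0.25 of Thrsp, and 8 lay within it for Acss2, whose nearest genes were Frat2, Gstm4 and Gstt3. Acacb had Fdft1, squalene synthase of cholesterol synthesis, at 0.0162, then Mxra8 and Esyt1. Scd1 was nearest to Arrb1, Tent5a and Fggy, Acly to Txnrd3, Chml and Cd274, and Acaca to Cndp2, Acp6 and Crim1. Elovl6 was nearest to Mad1l1, Topbp1 and Usp37, of which Topbp1 serves DNA replication and Mad1l1 the spindle checkpoint.

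The time courses of Fasn, Me1 and Scd2 were common ones. Within a distance of 0.25 lay 880 genes for Fasn, 487 for Me1 and 451 for Scd2, against 28 for Acacb, 48 for Scd1, 52 for Acaca, 75 for Elovl6 and 76 for Acly. The nearest genes were Kansl3, Psenen and the pseudogene Selenok-ps1 for Fasn, Zfp677, Crtap and Pik3r4 for Me1, and Laptm4a, Wdr62 and Slc25a16 for Scd2. With 3 arrays a distance describes these arrays and no more.

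Genes that supply carbon and NADPH to the route had small median differences, with single genes far above and below them. In the list of citrate and acetyl-CoA supply, 2 of 8 measured genes passed 2-fold upward between day 2 and day 8 (13.8% of all genes). Downward it was passed by 1 (12.9% of all genes), and the list's median was 0.30. Slc25a1, the carrier that brings citrate out of mitochondria, read 4.45, 5.83 and 6.09, a difference of 1.38 to day 8. Slc25a10, a dicarboxylate carrier, read 0.81, 2.21 and 2.19. Mpc2, a subunit of the mitochondrial pyruvate carrier, read 6.71, 5.71 and 4.89, so that it was lower on day 8 by just about 2-fold, and by less than that under quantile, cyclic loess and spike-in scaling; the difference from day 8 to day 20 was -0.82. Its partner Mpc1, named after its values were seen, gave -0.89 and then -0.48.

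In the list of NADPH supply, 2 of 12 measured genes passed 2-fold upward by day 8 (13.8% of all genes) and 0 downward (12.9%). The list's median was 0.18. Aldh1l1, a folate dehydrogenase that yields NADPH, read -1.37, 2.67 and 3.23, a difference of 4.04. H6pd, the hexose-6-phosphate dehydrogenase of the endoplasmic reticulum, was 2.02 higher. The cytosolic pentose phosphate enzymes G6pdx and Pgd, named after their values were seen, differed by -0.49 and 0.16.

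Regulators known for the route had a median difference near that of all genes. In the list of lipogenic transcription control, 2 of 18 measured genes passed 2-fold upward by day 8 (13.8% of all genes) and 0 downward (12.9%). By its bound 1 more passed it upward. The median was 0.04, and below 0 under median scaling (-0.07) and with probes averaged (-0.03). Srebf1, which encodes SREBP-1, read -1.05, 0.12 and -0.09, a difference of 1.17 to day 8 and then -0.21. Nr1h3, liver X receptor alpha, read 4.01, 5.12 and 4.35, with differences of 1.11 and -0.78. Insig1, which holds SREBP in the endoplasmic reticulum, was higher on day 8 by a little under 2-fold (0.999), and by a little over it under quantile, cyclic loess and spike-in scaling. Mlxipl, which encodes ChREBP, lay near the faintest signals on every array, at -5.87, -5.56 and -5.58 on days 2, 8 and 20. It was called well above background on day 20 only, where it was no brighter than on day 8. No difference of Mlxipl between days was thus measured here. Thrb, thyroid hormone receptor beta, was also not well above background on day 2, gained at least 6.02-fold by day 8 and was 1.17 higher again on day 20.

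The list of acetyl-CoA carboxylase control holds mainly subunits and upstream kinases of AMPK, the kinase that switches the carboxylases off. By day 8, 2 of its 10 measured genes passed 2-fold upward (13.8% of all genes) and 0 downward (12.9%), with a median of 0.60. Prkag2, a gamma subunit, was 1.32 higher, and Camkk2, a kinase that activates AMPK, 1.17 higher. Prkaa2, the second catalytic subunit, was likewise too dim on day 2, gained at least 2.45-fold by day 8 and was 1.18 higher again on day 20. With normexp background correction the later differences of Thrb and Prkaa2 were 0.55 and 0.37.

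Of the other elongation and desaturation genes, 7 of 16 measured passed 2-fold upward by day 8 (13.8% of all genes) and 1 downward (12.9%). By their bounds 2 more passed it downward, and the list's median was 0.60. Fads2 and Fads1, the desaturases of polyunsaturated fatty acids, were 2.76 and 2.28 higher, and Hacd4, a dehydratase of the elongation cycle, 2.23 higher. Fads2 and Hacd4 were dim on day 2, at -4.02 and -3.13. Under the alternatives their differences were as low as 1.82 and 1.41, and that of Fads1 as low as 2.17. Elovl3 and Elovl4, elongases of longer chains named after their values were seen, were well above background on day 2 only and at least 10.3-fold and 2.43-fold lower on day 8. Elovl5, which elongates polyunsaturated chains and is also named after its values were seen, was 1.14 higher. The elongases thus did not share a direction.

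The separate mitochondrial route of fatty acid synthesis, which makes the precursor of lipoic acid, had no gene above 0 after day 8 on the scale used here. By day 8, 1 of its 7 measured genes had passed 2-fold upward (13.8% of all genes) and 2 downward (12.9%). The list's median was -0.05, which was above 0 under quantile (0.08) and cyclic loess (0.07) normalization. Ndufab1, its acyl carrier protein, gave -1.28, Aasdhppt, which arms that carrier, -1.21, and Acsf3, a malonyl-CoA synthetase, 1.04. From day 8 to day 20, 0 of the 7 were above 0, with a median of -0.40, and 0 passed 2-fold. Under median scaling 1 of the 7 was above 0, and under spike-in scaling all 7 were, with a median of 0.27 against 0.62 for all genes. At that step 0 of 9 genes of citrate supply, 0 of 12 of NADPH supply, 1 of 19 of transcription control (Thrb), 1 of 11 of carboxylase control (Prkaa2) and 0 of 15 of other elongation and desaturation passed 2-fold upward, and 0 in each passed it downward. Of all genes, 3.58% passed it upward from day 8 to day 20 and 1.74% downward. Under spike-in scaling the signs of Srebf1, Insig1, Mpc1, Slc25a10 and G6pdx at that step turned to positive, and those of Insig1, Slc25a10 and G6pdx also under cyclic loess and median scaling.

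**Figure D5:**
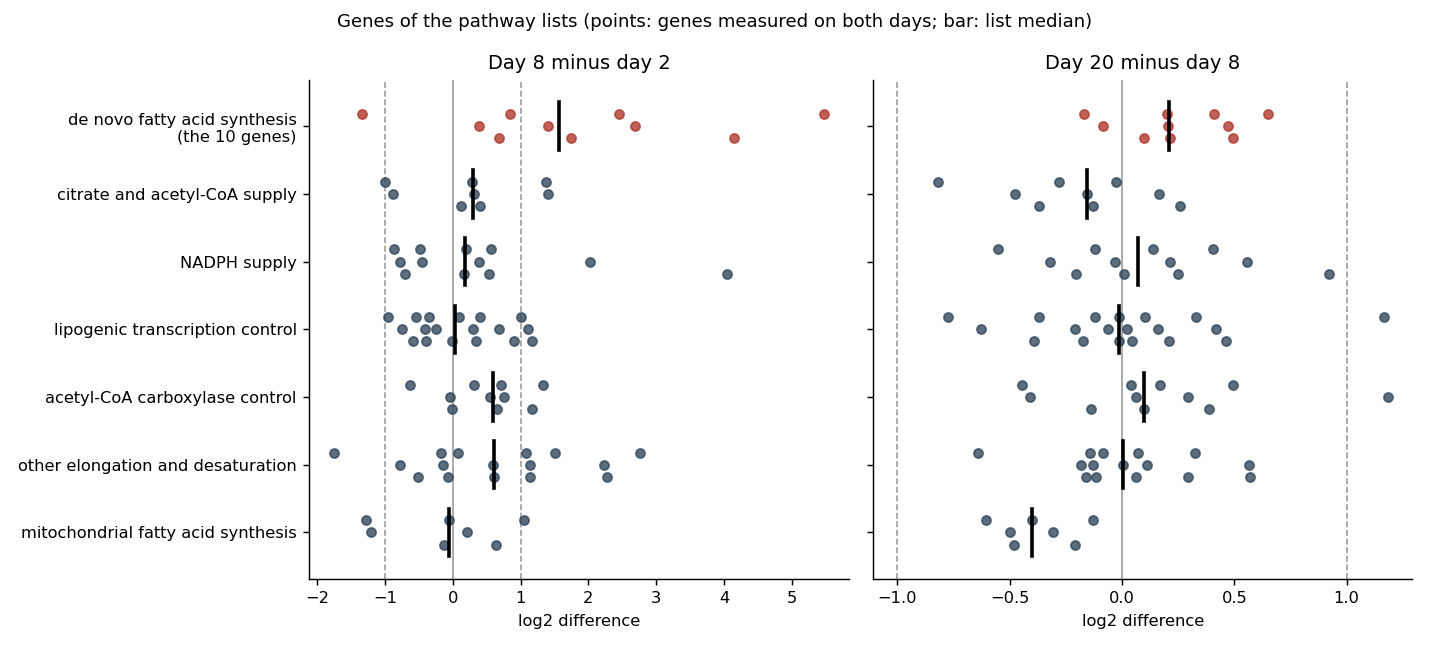
Log2 differences of single genes (points) and their median (bars) for the 10 genes in red and for the lists around the route, from day 2 to day 8 (left) and from day 8 to day 20 (right, on a narrower axis range); dashed lines mark 2-fold. On the left the red median of 1.57 stands to the right of the other medians, which lie between -0.05 and 0.60; on the right all 7 mitochondrial genes lie below 0, though above it under spike-in scaling.

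The labelled cell type was checked against lists of markers; the markers singled out here were chosen after their values were seen. Of 14 genes of adipocyte identity, 13 were well above background on day 2 and 14 on days 8 and 20, the exception being leptin (Lep). Between day 2 and day 8, 6 of 13 measured passed 2-fold upward (13.8% of all genes) and 0 downward (12.9%), with a median of 0.80. Cfd, which encodes adipsin, was 6.46 higher and Adipoq, which encodes adiponectin, 3.83 higher. Of the 13, 11 were above 0. Cebpa gave -0.40, Fabp4 -0.05 and Cidec 0.02, and the last 2 signs turned under other settings. The list's median from day 8 to day 20 was -0.31, and it was above 0 under quantile (0.10), cyclic loess (0.07) and spike-in (0.35) scaling. At that step 1 of 14 passed 2-fold upward (3.58% of all genes) and 1 downward (1.74%). The gene upward was Lep at 1.07, which was -0.04 with normexp. From day 2 to day 20 the median was 0.70, with 9 of 13 above 0. Fabp4 (-0.75), Cidec (-0.60), Retn (-0.60) and Cebpa (-0.28) were below 0, though above it under cyclic loess. The summed level of the list was 1004, 2147 and 1413 times the 75th percentile signal on days 2, 8 and 20. Such a sum adds different probes and leans on the brightest ones, so it is set only against the same list on another day.

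Of 11 genes of preadipocytes and fibroblasts, 10, 11 and 11 were well above background. Between day 2 and day 8, 4 of 10 measured passed 2-fold upward (13.8% of all genes) and 2 downward (12.9%), with a median of 0.43. By its bound 1 more, Cd34, passed it upward. Lum and Pdgfrb were 2.71 and 2.53 higher. The 4 genes below 0 were S100a4 at -2.07, Ly6a at -1.01, Thy1 at -0.68 and Dlk1 at -0.46, against 6 above 0. Ly6a was short of 2-fold under quantile, cyclic loess and spike-in scaling and with normexp. The median from day 8 to day 20 was 0.74, with 3 of the 11 past 2-fold upward (3.58% of all genes) and 1 downward (1.74%). Upward were Ly6a at 2.58, Thy1 at 1.81 and Dlk1 at 1.47. Downward was Cd34 at -1.17, short of 2-fold under cyclic loess, median and spike-in scaling and with normexp. From day 2 to day 20 the median was 1.50, with 8 of 10 past 2-fold upward (15.5% of all genes) and 1 downward (17.0%). Their summed level was 221, 168 and 303, so that the sum was lower on day 8 than on day 2 while the median difference was above 0; S100a4, with 6.99, 4.91 and 5.84, is in that sum. The part of both lists in the differences of the route was not tested.

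Some genes listed as markers of other cells were also higher on day 8. Of 8 brown and beige genes, 4, 5 and 5 were well above background. By day 8, 3 of 4 measured passed 2-fold upward (13.8% of all genes) and 0 downward (12.9%), with a median of 3.38. Cox7a1, a cytochrome oxidase subunit, was 7.62 higher, Cidea, a lipid droplet protein, 5.69 higher, and Cox8b, another such subunit, gained at least 1690-fold by its bound. Zic1 passed 2-fold at 1.07, though not under median scaling or with normexp. Ucp1, Prdm16 and Dio2 were not well above background on any array. The summed level of the list was 1.62, 161 and 123.

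Of 7 skeletal muscle genes, 3 were well above background each day. These 3 passed 2-fold upward by day 8, as 13.8% of all genes did, with a median of 3.52. Acta1 was 3.64 higher, Des 3.52 and Tnnt2 1.08, the last short of 2-fold under median scaling and with normexp. On day 2 Acta1 read -5.54, near the faintest signal well above background (-5.70), and the technical SD of its difference was 0.28. Under the alternatives the difference was as low as 1.65 for Acta1 and 2.52 for Des. Myog, Myod1, Ckm and Myh4 were never well above background, and the summed level was 0.165, 1.34 and 1.57. Of 8 macrophage genes with a probe, 3 were well above background each day, with sums of 9.04, 11.5 and 6.22. By day 8, 1 of the 3 passed 2-fold upward (13.8% of all genes), Cd14 at 2.96. Adgre1, Ptprc, Lyz2, Mrc1 and Tyrobp never were well above background. Of 7 hepatocyte genes, 0, 1 and 1 were, with sums of 0.0611, 0.0717 and 0.0687, and Alb, Apoa1 and Ttr never were. The part of these lists in the differences of the route was not tested.

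Signal set the precision of the single genes. Spots well above background made up 55.3% to 56.9% of the 43020 non-control spots of an array, over a median local background of 18.5 to 19. Of the 17 probes, 16 were well above background on all 3 arrays, and each was printed once per array. The technical SD was under 0.09 for the brightest probe of every gene and reached 0.298 for the dim Acaca probes. With 1 array per day, the number of arrays limits what can be said of the days.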

How the data were processed

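Total RNA of 3T3-L1 cells was measured on 3 arrays, 1 per day. The submitters' processing notes name Agilent Feature Extraction 10.7.1.1 as the software behind the deposited intensity values; the processed intensity is background-corrected but not scaled between arrays, per the file headers. Other deposited marks, per the file headers, flag spots as well above background, saturated or outlying. The series table's deposited log2 values equalled log2 processed intensity plus -9.37, -9.31 and -9.86 on days 2, 8 and 20, within 0.01 for 100% of probes, with column medians of -4.80, -4.69 and -4.89. Scale, centring and direction of that table are thereby known. Further steps of the authors are not given in the sources used here.

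Control and outlier spots were left out and spots of a probe averaged, which lost 2 of 39429 probes. Probes were named by RefSeq accession through a table of GRCm38.p6. A gene took its brightest probe by mean value, and a difference counted at 2-fold where both arrays were well above background. The technical SD came from the 25 repeated probes nearest in signal. Members and lists were chosen with earlier results of these data known. Every member was named, up to 3 genes per pathway list and comparison by largest difference of at least 2-fold, Srebf1, Mlxipl, Nr1h3 and Insig1, and the 3 nearest genes of each member; other genes, cell markers included, are said to be named after their values were seen. The 10 alternatives used limma 3.58.1 in R 4.3.3, pandas 2.3.3 and numpy 2.4.6. Normexp (offset 50) was run on the median signal in place of the planned mean signal, which was not used here. The counting was checked on simulated data.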

Additional observations from a re-analysis of the deposited data

How the results depend on the processing

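With 1 array per day, no alternative could leave out a replicate, and no paired analysis was possible because each day has 1 array. Of 60 counts of genes past 2-fold recomputed under 10 alternatives, 58 stayed within 1.5 times. The exceptions were the count at least 2-fold higher on day 20 than on day 8, which was 4 under spike-in scaling against 0, and the count at least 2-fold lower on day 8 than on day 2, which was 0 with normexp against 1. Of 30 differences of single genes, 28 kept their sign under all 10 alternatives, and those of Fasn and Scd2 from day 8 to day 20 did not, reaching 0.58 and 0.50 under spike-in scaling. The series table, no filter on dim probes and the stricter filter gave each of the 10 genes its main value, apart from rounding. These alternatives could therefore move neither a count nor a sign of the 10 genes, and their sameness is no check. Under spike-in scaling the shift is that of all genes; whether the scaling on spike-in probes or on the 75th percentile is nearer the RNA of the cells was not tested.

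Over all genes from day 8 to day 20, 441 were at least 2-fold higher and 214 lower, so 67.3% of those past 2-fold were higher. This became 620 and 127 (83.0%) under cyclic loess, 643 and 123 (83.9%) under median scaling, 2085 and 21 (99.0%) under spike-in scaling, 694 and 1315 (34.5%) with no filter on dim probes, 206 and 100 with normexp, 529 and 171 under quantile normalization and 281 and 111 with a stricter filter. From day 2 to day 20, 1840 higher and 2017 lower became 3814 and 702 under spike-in scaling, 2432 and 1308 under cyclic loess and 2581 and 3212 with no filter. From day 2 to day 8, 1665 higher became 2615 with no filter. The faint Acaca and Acly probes had technical SDs above 0.2 from day 2 to day 8.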

Other observations

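Genes that carry out the same step, or form the same complex, differed in direction around the route; these were picked after their values were seen and have no test. From day 8 to day 20 the signs given for Hacd2, Prkag1 and Mlycd turn to positive under spike-in scaling, as do those of Hacd1 and Hacd3, the last 2 also under quantile, cyclic loess and median scaling. The dehydratases of the elongation cycle parted between day 2 and day 8: Hacd4 read -3.13, -0.89 and -0.78 on days 2, 8 and 20 and Hacd1 2.79, 3.92 and 3.81, while Hacd2 read 8.16, 6.41 and 5.76 and Hacd3 4.42, 4.28 and 4.15. Hacd1 was thus 1.14 higher on day 8, and Hacd2 was lower by a log2 difference of -1.76 and then of -0.64. Hacd3 differed by only -0.14 (technical SD 0.0666) to day 8, and that sign turned to positive under quantile and cyclic loess normalization.

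The gamma subunits of AMPK, the kinase that restrains acetyl-CoA carboxylase, parted in the same way. Prkag2 read 0.72, 2.05 and 2.22, and Prkag1 read 3.75, 3.13 and 2.68, which is a difference of -0.63 to day 8 and of -0.45 from day 8 to day 20. Of the malic enzymes, Me1 was 0.69 higher on day 8 and the mitochondrial Me2 differed by -0.78. Me3 was dim, at -4.89, -4.49 and -3.57, and differed by 0.39 (technical SD 0.30) and then by 0.92 (0.22) to day 20. That later difference was as low as 0.21 under the alternatives. Mlycd, the decarboxylase that removes malonyl-CoA, read 3.71, 4.36 and 3.96, so it was highest on day 8, as Nr1h3 was.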
